A study of Homo sapiens with 3 samples.

Results

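The genes described here are 10 members of the transforming growth factor-β (TGF-β) superfamily pathway, picked by name as ligands, receptors, SMAD proteins and a target gene, with earlier results of these data known. All 10 were found by symbol among 29960 genes of the deposited table, and all 10 passed a minimum mean count of 10 reads over the libraries, as did 14846 genes in all. The members are the ligands TGFB1, TGFB2, INHBA, BMP2 and BMP4, the receptors TGFBR1 and TGFBR2, the signal transducer SMAD3, the inhibitor SMAD7 and the target ID1. INHBA encodes a subunit of activin, so activin is covered beside TGF-β and the bone morphogenetic proteins (BMPs).

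RNA was sequenced from 5637, an established human bladder cancer cell line. Here 3 libraries were used, 1 of the untreated parental line (5637P) and 2 of its gemcitabine-resistant derivative (5637GR), which the methods of the study describe as single-cell clones. The deposited table also has columns named for further clones of both groups, which carry no sample label here and were not analysed here. The resistant cells carry no other labelled genetic change, were selected by gemcitabine, a nucleoside analogue that blocks DNA synthesis, and were untreated when sampled. The labels call the selection acute, whereas the methods of the study describe exposure in cycles of rising dose. A clone is 1 line grown from 1 cell, so a difference between the groups cannot be told apart from a difference between clones. The parental library held 14475531 reads on genes, resistant library 1 held 15836788, and resistant library 2 held 17461941. Levels are given as CPM, the reads of a gene scaled to the library total after TMM correction by edgeR. In bulk RNA of this kind, fewer cells with a transcript and less transcript per cell cannot be told apart.

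TGF-β and activin bind a type II receptor that recruits and activates a type I receptor, which phosphorylates SMAD2 and SMAD3. BMPs act through related receptors on SMAD1, SMAD5 and SMAD9, and both branches share SMAD4. SMAD6 and SMAD7 are induced by the pathway and feed back to restrain it. In epithelia, TGF-β is known for arresting growth and for promoting epithelial-to-mesenchymal transition, and the ID genes are classical targets of the BMP branch.

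The libraries were first checked against the bladder epithelial label. Of 16 urothelial and epithelial markers, 13 passed the count minimum, with a summed level of 10431 CPM in the parental library and 7625 and 7818 CPM in resistant libraries 1 and 2. KRT19, a simple-epithelial keratin, was the most abundant, at 4303, 3594 and 4783 CPM in that order of libraries. KRT8 followed at 2269.5, 1667 and 1014 CPM and KRT7 at 1986, 1048 and 868 CPM, both lower in the resistant clones without passing edgeR's test (adjusted p = 0.623 and 0.358). EPCAM and CDH1, which mark epithelial cells, were expressed in every library, and the uroplakin UPK3A had no read in any. KRT5, the keratin of basal urothelium, was read at 271 CPM in the parental clone and at 9.79 and 13.8 CPM in the resistant clones. That difference passed edgeR's quasi-likelihood test (log2 fold change -4.52 ± 0.37 SE, adjusted p = 0.00223), and so did that of UPK1B (74 reads against 0 and 0, adjusted p = 0.0181). In the authors' group means, which span further clones, these differences were smaller, with 20.4 normalized counts in the resistant and 70.1 in the parental group for UPK1B, and 2047 and 11544 for KRT5. Blood cell markers summed to at most 1.53 CPM and endothelial markers to at most 2.25 CPM per library. Fibroblast markers summed to 173, 156 and 148 CPM, while LUM and FAP had no read. Of these markers COL1A1 had the highest mean over the libraries, at 113, 97.0 and 61.2 CPM. COL1A2, at 59.2, 57.9 and 83.9 CPM, was above it in resistant library 2. Whether the shift of keratins takes part in the values of the signalling genes was not tested.

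The promoters of BMP4, SMAD7 and ID1 are shown because these genes are a ligand, a feedback inhibitor and a target that the pathway can itself regulate. The sequences are the 250 bases before the most upstream transcription start that RefSeq lists for each gene on GRCh38.p14, read 5′ to 3′ on the gene's strand. They lie at chr14:53955051-53955300 (minus strand), chr18:48950966-48951215 (minus strand) and chr20:31605039-31605288 (plus strand). Capitals mark matches, on either strand, to CAGAC (a short SMAD-binding element) or GGCGCC (a GC-rich element bound by BMP-activated SMADs), motifs that do not overlap each other.
BMP4: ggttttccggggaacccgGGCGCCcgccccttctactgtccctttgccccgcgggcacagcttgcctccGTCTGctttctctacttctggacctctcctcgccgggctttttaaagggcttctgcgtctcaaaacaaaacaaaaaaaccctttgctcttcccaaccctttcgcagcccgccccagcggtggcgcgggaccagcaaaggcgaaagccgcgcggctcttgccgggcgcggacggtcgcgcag
SMAD7: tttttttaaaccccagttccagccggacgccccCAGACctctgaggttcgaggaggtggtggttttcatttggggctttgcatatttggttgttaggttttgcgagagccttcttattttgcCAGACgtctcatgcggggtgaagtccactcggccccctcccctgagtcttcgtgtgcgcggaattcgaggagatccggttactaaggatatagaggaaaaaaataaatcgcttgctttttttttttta
ID1: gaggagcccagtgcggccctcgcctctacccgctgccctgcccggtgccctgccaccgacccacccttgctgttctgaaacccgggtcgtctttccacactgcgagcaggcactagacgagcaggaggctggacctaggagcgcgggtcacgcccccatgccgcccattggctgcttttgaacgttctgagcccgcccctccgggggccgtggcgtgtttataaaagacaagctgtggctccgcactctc

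The BMP4 window held GGCGCC at position -232 and CAGAC at -181, and the SMAD7 window held CAGAC at -217 and -128, counted from the start as the first base of each match. The ID1 window held none of the motifs searched, which also included GTCTAGAC, the palindromic SMAD element, and TGANTCA, the AP-1 element. Among 35116 promoter windows of the same length, 38.0% held CAGAC, 16.4% GGCGCC, 6.57% TGANTCA and 0.182% GTCTAGAC. RefSeq windows matched 9 members (BMP2 had none in the table used), with 25 windows in all. Of these 25 windows, 11 held CAGAC, 3 GGCGCC, 1 TGANTCA and 0 GTCTAGAC, and windows of the same gene can overlap. A match is a description of letters and not of a bound site.

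In expression per gene length, ID1 stood above the other members in every library. Its level was 326 FPKM (reads scaled to gene length and library total, as the authors computed them) in the parental clone, and 171 and 122 FPKM in the resistant clones. SMAD3 followed with a mean of 55.9 FPKM over the 3 libraries, then TGFB1 with 50.3, INHBA with 34.8 and BMP4 with 27.3 FPKM. The remaining levels were 17.9 FPKM for TGFBR2, 10.9 for TGFB2, 7.53 for SMAD7, 4.67 for TGFBR1 and 4.27 for BMP2. Except for ID1 against SMAD3, neighbours in this order had overlapping ranges over the libraries. SMAD3 was above TGFB1 in 2 of 3 libraries, and the type II receptor TGFBR2 was above the type I receptor TGFBR1 in each.

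The question of the study's RNA-Seq was which genes differ with gemcitabine resistance. For the pathway, 3 members were higher in both resistant clones than in the parental clone (TGFB2, BMP4 and TGFBR2), 4 were lower in both (TGFBR1, SMAD3, SMAD7 and ID1), and 3 had a resistant clone on either side of it (TGFB1, INHBA and BMP2). Both resistant clones lay on the same side of the parental clone for 69.6% of all genes tested, so 7 of 10 is near that background. None of the 10 members passed an adjusted p of 0.05 in edgeR's quasi-likelihood test, which called 78 genes, or 0.525% of those tested, 20 higher and 58 lower in the resistant clones. Before adjustment, 4 members had an edgeR p under 0.05 (TGFBR1, ID1, TGFBR2 and BMP4), against 9.62% of all genes, and DESeq2 gave 0 members past its adjusted p and the same number, 4, before adjustment. Only TGFBR1 and ID1 were at least 2-fold to the same side in both resistant clones, both lower, against 5.31% of all genes in either direction. By resistant clone 2 alone 6 members were past 2-fold, with TGFB1, TGFBR2, INHBA and BMP4 higher, against 13.5% of all genes. The test takes the lone parental library to vary like the resistant pair, the only source of an observed spread between clones. That spread has 1 degree of freedom and is moderated toward a spread shared over genes, with a median prior of 7.40 degrees of freedom. The p-value of a gene therefore rests mostly on the shared part and not on its own spread between clones.

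**Figure D1:**
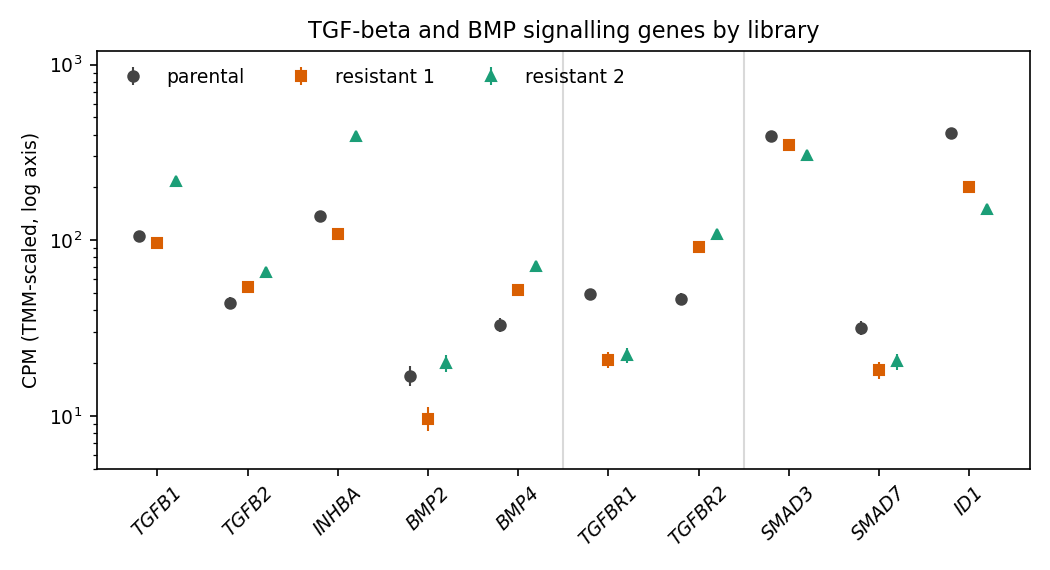
TMM-scaled CPM (log axis) of the 10 genes in the parental clone (circles) and in resistant clones 1 (squares) and 2 (triangles), with 95% counting intervals as bars and grey lines between ligands, receptors, and SMADs with ID1. TGFBR1 was at 49.1 CPM in the parental clone and at 20.8 and 22.1 CPM in the resistant clones, and INHBA shows the widest gap between the resistant clones, 108 against 391 CPM.

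The receptors were read in opposite directions, and neither passed edgeR's test. TGFBR1 (ENSG00000106799, chromosome 9, 101866320 to 101916474, plus strand; positions of members are those of the deposited table, hg19 per the submitters' processing notes) encodes the type I receptor kinase that phosphorylates SMAD2 and SMAD3. It was read at 49.1 CPM in the parental clone and at 20.8 and 22.1 CPM in resistant clones 1 and 2, from 693, 340 and 384 reads. The resistant clones lay close together and below the parental clone, whose 95% counting interval was 45.5 to 52.9 CPM. The log2 fold change was -1.19 ± 0.34 (SE), with an adjusted p of 0.258 in edgeR's test. Other tested genes in its 10-Mb window (100 to 110 Mb of chromosome 9, 37 genes) had a median log2 fold change of -0.44, and relative to that median TGFBR1 was at -0.76. The part of the neighbourhood in this value was not tested.

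TGFBR2 (ENSG00000163513, chromosome 3, 30647994 to 30735634, plus strand) encodes the type II receptor, which binds the ligand and activates TGFBR1. Its level was 46.4 CPM in the parental clone and 91.5 and 109 CPM in the resistant clones. Both resistant clones were above the parental clone by about the same factor, 1.97-fold and 2.35-fold. The log2 fold change was 1.11 ± 0.36 (SE), and edgeR's adjusted p was 0.347. Per gene length, TGFBR2 and TGFBR1 were at 9.78 and 7.35 FPKM in the parental clone, at 20.4 and 3.29 FPKM in resistant clone 1, and at 23.5 and 3.37 FPKM in resistant clone 2.

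Among the ligands, BMP4 and TGFB2 were read higher in both resistant clones. BMP4 (ENSG00000125378, chromosome 14, 54416454 to 54425479, minus strand), a BMP ligand with roles in epithelial patterning, was at 32.8 CPM in the parental clone and at 52.2 and 71.7 CPM in the resistant clones. The groups did not overlap, and the log2 fold change was 0.92 ± 0.38 (SE; edgeR adjusted p = 0.488). Of the members it had the closest match between the 3 libraries and the authors' group means, which were 813 normalized counts in the resistant and 414 in the parental group, a log2 ratio of 0.97. TGFB2 (ENSG00000092969, chromosome 1, 218519577 to 218617961, plus strand), a TGF-β isoform, was at 44.0, 54.4 and 66.3 CPM. Its log2 fold change of 0.45 ± 0.35 (SE) did not pass edgeR's test (adjusted p = 0.789).

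For the other ligands, TGFB1, INHBA and BMP2, the resistant clones stood on either side of the parental clone. TGFB1 (ENSG00000105329, chromosome 19, 41807492 to 41859816, minus strand), the main TGF-β isoform of most epithelia, was at 105 CPM in the parental clone, 96.5 CPM in resistant clone 1 and 217 CPM in resistant clone 2. INHBA (ENSG00000122641, chromosome 7, 41724712 to 41742706, minus strand), which forms activin A as a dimer, was at 137, 108 and 391 CPM in the same order. BMP2 (ENSG00000125845, chromosome 20, 6748311 to 6760927, plus strand) was at 16.9, 9.61 and 19.9 CPM. In each case resistant clone 2 held the highest value and resistant clone 1 the lowest. The fitted log2 fold changes were 0.57 ± 0.50 (SE) for TGFB1, 0.86 ± 0.66 for INHBA and -0.20 ± 0.50 for BMP2, with edgeR adjusted p of 0.832, 0.786 and 0.967. Their direction depended on the clone: with resistant clone 1 alone the log2 ratios of TGFB1 and INHBA to the parental clone were -0.13 and -0.34, and with resistant clone 2 alone that of BMP2 was 0.22.

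The gap between the resistant clones was itself wide for these ligands. Resistant clone 2 was above resistant clone 1 by 3.60-fold for INHBA, 2.25-fold for TGFB1 and 2.07-fold for BMP2. These 3 of 10 members reached a 2-fold excess in resistant clone 2, against 5.23% of all genes, and no member did so in resistant clone 1, against 2.26%. This compares 2 libraries and not 2 conditions. TGFB1 overlaps HNRNPUL1 and CCDC97 on the opposite strand, with 8905, 5611 and 10472 reads and with 1020, 770 and 1066 reads, and INHBA overlaps the antisense RNA INHBA-AS1, with 11, 9 and 23 reads. Use of strand in counting is not given in the sources used here, so such reads cannot be told apart.

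**Figure D2:**
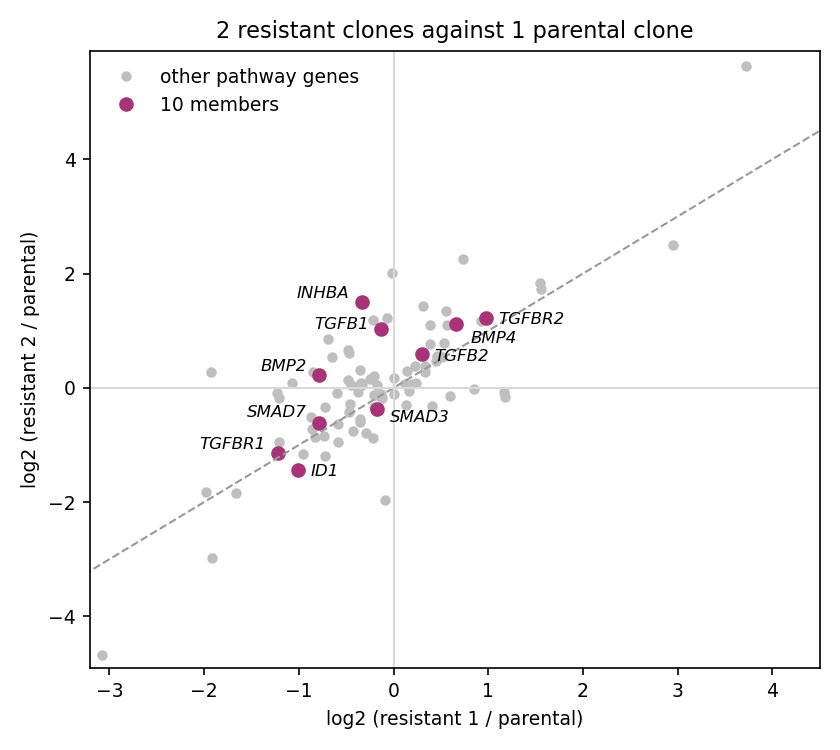
Log2 ratio to the parental clone, after a prior of 0.5 CPM, in resistant clone 1 (horizontal axis) and resistant clone 2 (vertical axis), for the 10 members (purple) and the other tested pathway genes (grey), with the line of equal ratios dashed. INHBA, TGFB1 and BMP2 lie left of zero and above it, while TGFBR1, ID1, SMAD7 and SMAD3 lie below zero in both clones.

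The intracellular members SMAD3, SMAD7 and ID1 were read lower in both resistant clones, as were 34.5% of all genes tested. SMAD3 (ENSG00000166949, chromosome 15, 67356101 to 67487533, plus strand), which carries the TGF-β and activin signal to the nucleus, was abundant in each library, at 395 CPM in the parental clone and 350.3 and 304 CPM in the resistant clones. The log2 fold change was -0.27 ± 0.35 (SE; edgeR adjusted p = 0.911), smaller than its error. SMAD7 (ENSG00000101665, chromosome 18, 46446223 to 46477081, minus strand), the inhibitor that targets the type I receptor, was at 31.5, 18.1 and 20.4 CPM. Both resistant clones were lower, with a log2 fold change of -0.71 ± 0.35 (SE; edgeR adjusted p = 0.593).

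ID1 (ENSG00000125968, chromosome 20, 30193086 to 30194318, plus strand) encodes an inhibitor of basic helix-loop-helix transcription factors and responds to BMP signals. It was at 408 CPM in the parental clone and at 202 and 150.4 CPM in the resistant clones, from 5760, 3304 and 2612 reads. The parental clone was above both resistant clones, 2.02-fold above clone 1 and 2.72-fold above clone 2. The log2 fold change was -1.21 ± 0.36 (SE), the lowest of the 10 members, and edgeR's adjusted p was 0.281. In its 10-Mb window (30 to 40 Mb of chromosome 20) 99 other tested genes had a median of -0.29, and BMP2, in the first 10 Mb of the same chromosome, lay among 62 genes with a median of -0.28. Relative to these windows ID1 was at -0.93 and BMP2 at 0.082. The part of the neighbourhood was not tested.

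**Figure D3:**
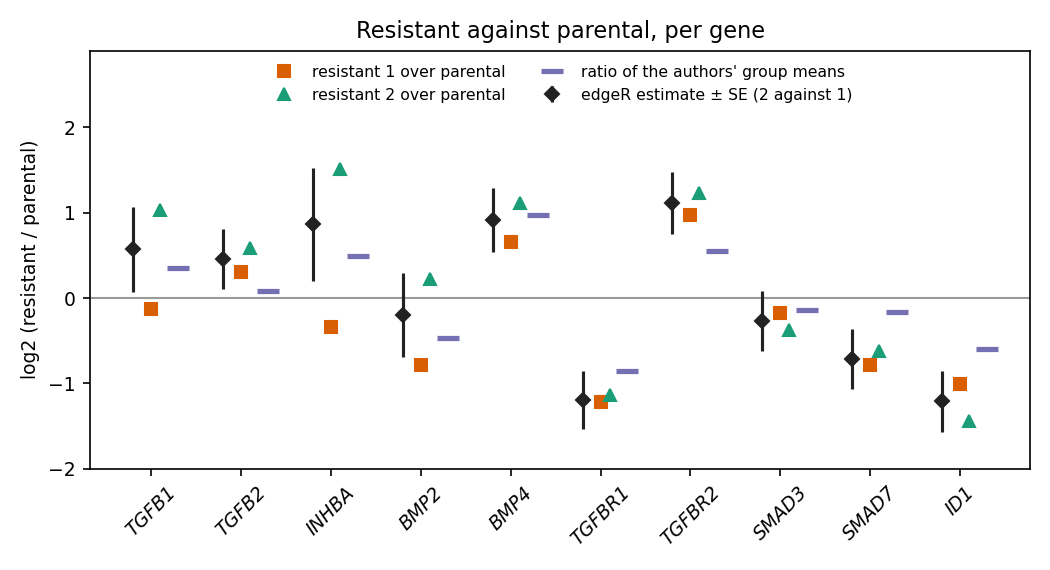
Log2 ratio of resistant to parental for the 10 members by edgeR (diamonds, bars are 1 SE), by each resistant clone against the parental clone (squares and triangles), and by the authors' group means (dashes, pseudocount 1, no error given). The signs of diamonds and dashes match for all 10, and the dashes lie nearer to zero than the diamonds for 8 of 10, all but BMP2 and BMP4.

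The authors' group means, which average normalized counts over the clones of each group and include the 3 libraries, gave the sign of the edgeR estimate for 10 of 10 members. The log2 ratio of these means was -0.85 for TGFBR1, 0.56 for TGFBR2, -0.60 for ID1 and 0.50 for INHBA. For SMAD7 it was -0.16, from means of 378 and 421, against -0.71 in the 3 libraries. For TGFB2 it was 0.078, for TGFB1 0.35, for SMAD3 -0.14 and for BMP2 -0.46. Since these libraries are part of the means, the shared sign is not independent of them.

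The rest of the pathway was described through 6 lists with 116 further genes, of which 106 were in the table and 82 were tested. None of the 82 passed edgeR's adjusted p of 0.05 (0.525% of all genes did), 14 had an unadjusted p under 0.05, 7 higher and 7 lower (against 9.62% of all genes), and DESeq2 called 7 (against 1.67% of all genes, 248 in number). In both resistant clones 23 of the 82 were above the parental clone and 32 below it, near the 69.6% of all genes with both resistant clones on the same side. Their median log2 fold change was -0.067, against 0.025 for all genes tested. At least 2-fold differences to the same side in both clones were found for 8 genes, 4 higher and 4 lower, against 5.31% of all genes.

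Of 28 other ligands, 8 were tested, and their median log2 fold change was 0.48. The most abundant by mean CPM over the libraries, the measure used for this in each list, was GDF15, a stress-induced distant member of the superfamily. It had 18 reads in the parental library and 375 and 1527 in the resistant libraries, or 1.28, 23.0 and 87.9 CPM. Both resistant clones were far above the parental clone, and resistant clone 2 far above clone 1. The log2 fold change was 5.43 ± 0.94 (SE), with an adjusted p of 0.0562 in edgeR's test, and it passed 0.05 in each of 5 other fits. GDF11 followed at 40.5, 21.9 and 28.4 CPM, then BMP3 at 4.40, 10.6 and 3.86 CPM and AMH at 3.83, 4.28 and 4.84 CPM. Each of them was above GDF15 in the parental clone. TGFB3, the remaining TGF-β isoform, was named after its values were seen and was at 1.91, 2.69 and 1.44 CPM, so that TGFB1 and TGFB2 supplied most TGF-β reads.

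Of 16 other receptors and co-receptors, 12 were tested, with a median log2 fold change of -0.17. In both resistant clones 1 gene was above the parental clone and 6 were below it, and 5 had a clone on either side, where 35.2% of all genes were above and 34.5% below in both. The BMP type II receptor BMPR2 had the highest mean CPM over the libraries, at 79.7, 57.4 and 59.6 CPM, and was the highest only in the parental clone. Endoglin (ENG), a TGF-β co-receptor, was at 34.2 CPM in the parental clone and 65.4 and 77.9 CPM in the resistant clones, a log2 fold change of 1.07 ± 0.36 (SE; edgeR adjusted p = 0.370), close to that of TGFBR2. The BMP co-receptor RGMB was at 38.4, 30.0 and 47.7 CPM, and the activin type I receptor ACVR1B at 48.9, 36.4 and 28.6 CPM.

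All 17 other SMADs and SMAD regulators were tested, and their log2 fold changes had a median of -0.13. The ubiquitin ligases NEDD4L, SMURF2 and SMURF1, which degrade receptors and SMADs, and the co-repressor SKI were the most abundant. NEDD4L was at 218, 297 and 303 CPM, SMURF2 at 118, 163 and 173, SMURF1 at 126, 147 and 164, and SKI at 123, 154 and 149 CPM. Each of the 4 was read higher in both resistant clones, with log2 fold changes from 0.31 to 0.51, none past edgeR's test. Of all 17, 5 were above the parental clone in both resistant clones, 9 were below it and 3 had a clone on either side. Among all genes, 35.2% were above and 34.5% below in both. No gene of this list differed 2-fold to the same side in both clones.

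Of 23 latency proteins, secreted inhibitors and decoys, 16 were tested, with a median of -0.029. THBS1, a secreted activator of latent TGF-β, was at 572, 1033 and 563 CPM, the latency protein LTBP3 at 500.3, 395 and 529 CPM, FSTL1 at 220, 247 and 211 CPM, and the integrin subunit ITGAV at 181, 227 and 236 CPM. ITGB6, the epithelial integrin subunit that with ITGAV releases active TGF-β, was named after its values were seen. It was at 148 CPM in the parental clone and at 37.0 and 41.3 CPM in the resistant clones. Both resistant clones were alike and below the parental clone, with a log2 fold change of -1.92 ± 0.32 (SE), an edgeR adjusted p of 0.0509, and a p under 0.05 in each of 5 other fits.

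Of 25 TGF-β target genes 24 were tested, 7 above and 9 below the parental clone in both resistant clones, so that 16 of 24 had both on the same side, near the 69.6% of all genes. Their median was -0.11. The collagen gene COL4A2 had the highest mean CPM over the libraries, at 1186, 565 and 1260 CPM. By this mean FN1 (575, 681 and 611 CPM) and PMEPA1, a feedback inhibitor (579, 320 and 704 CPM), followed. In resistant clone 1 FN1 was above COL4A2, and in the other libraries PMEPA1 was above FN1. For COL4A2 and PMEPA1 the resistant clones stood on either side of the parental clone. The transglutaminase gene TGM2 was at 627, 322 and 279 CPM, a log2 fold change of -1.06 ± 0.34 (SE; edgeR adjusted p = 0.349).

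Of 13 BMP target genes 11 were tested, 2 above and 6 below the parental clone in both resistant clones, so that 8 of 11 had both clones on the same side, against 69.6% of all genes. Their median of -0.61 was the lowest of the 6 lists and is the value of GATA3, which is also a urothelial marker. The urothelial and epithelial markers had the same median, through the same gene, with 10 of 13 below the parental clone in both resistant clones, against 34.5% of all genes. GATA3, a urothelial transcription factor, was at 96.1, 64.0 and 61.5 CPM. The inhibitor SMAD6, listed also among the SMADs, was at 66.3, 40.0 and 28.8 CPM, a log2 fold change of -0.94 ± 0.35 (SE; edgeR adjusted p = 0.441), and the homeobox genes MSX2 and DLX2 were at 25.1, 10.6 and 12.7 CPM and at 27.1, 17.1 and 39.5 CPM. ATOH8, a helix-loop-helix factor downstream of BMP receptors, was named after its values were seen. It had 278 reads in the parental library and 31 and 5 in the resistant libraries (log2 fold change -4.17 ± 0.78 SE, edgeR adjusted p = 0.0682), and it passed 0.05 in each of 5 other fits. GATA2, ID2, ID3 and ID4 were also named in this way. GATA2, a hematopoietic transcription factor, had 4 reads in the parental library and 91 and 68 in the resistant libraries (log2 fold change 4.03 ± 0.79 SE, edgeR adjusted p = 0.0836), and it passed 0.05 in 4 of the 5 other fits. By the authors' group means, the log2 ratio was 0.68 for GATA2 and -2.06 for ATOH8. ID3, a close relative of ID1, was at 21.2, 19.9 and 5.07 CPM, so that resistant clone 2 alone stood apart, and ID2 and ID4 were under the count minimum with at most 10 reads in a library.

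**Figure D4:**
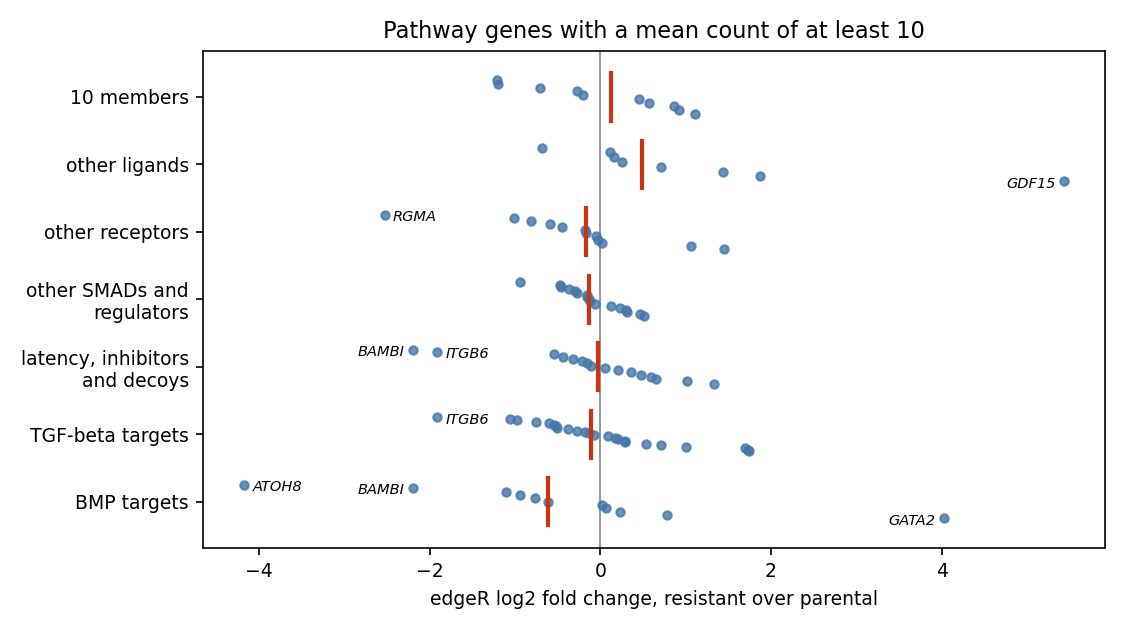
Log2 fold change, resistant over parental, by edgeR for each tested gene (points) of the 10 members and the 6 further lists, with the list's median as a red bar. Points spread to both sides of zero in every list, the median of the BMP targets lies at -0.61, and no point passed an adjusted p of 0.05.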

How the data were processed

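The authors sequenced poly(A) RNA (Illumina, CASAVA 1.8 and hg19 per the submitters' processing notes); aligner, counter and annotation are not given in the sources used here. The deposited table holds raw read counts per gene and library, FPKM per library, which the authors computed from count, gene length and total, and a signal per group, the authors' mean of normalized counts. Its fold changes and p-values are the authors' DESeq2 comparison and were not used, nor were 6 per-library columns, counts and FPKM of 3 further clones without a sample label here.

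Counts of the 3 labelled libraries (total counts under "reads on genes") were tested over all genes with a mean count of at least 10 by edgeR 4.0.16 (R 4.3.3): TMM factors, glmQLFit and glmQLFTest, resistant against parental, no covariate, Benjamini-Hochberg adjustment over 14846 genes. With 1 residual degree of freedom, the parental library was assumed to vary like the resistant ones. SEs are the log2 fold change over the square root of F. Ratios of single libraries used a prior of 0.5 CPM, counting intervals were exact Poisson intervals (95%), which cover counting error only, and the group means a pseudocount of 1. The floor of 3 counts was 0.213, 0.184 and 0.173 CPM.

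Alternatives were DESeq2 1.42.0, RLE factors, library totals, other filters, an adjusted p of 0.1, single clones, group means and window medians. Members and lists were chosen with earlier results of these data known. Named genes were all members and, of each pathway list, genes past the test and the 4 most abundant by mean CPM over the libraries. Other pathway genes are said to be named after their values were seen. Cell type markers were chosen for naming after their values were seen. Steps were tested on simulated data. For edgeR the simulated counts had a lower dispersion (spread beyond counting error) than the common dispersion of 0.0768 fitted to these libraries. Calculations used Python 3.11.15, pandas 2.3.3, numpy 2.4.6, scipy 1.17.1 and matplotlib 3.10.9.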

Additional observations from a re-analysis of the deposited data

How the results depend on the processing

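With 1 parental and 2 resistant libraries the number of calls depended on the fit, while 0 of 10 members were called in any. Against 78 genes called (20 higher, 58 lower) of 14846 tested, the number tested in each fit unless another is given, edgeR called 145 with RLE factors (46 and 99), 219 with library totals (95 and 124), 534 of 26434 with no filter but 1 read (273 and 261), 113 of 11960 with a mean count of at least 50 (48 and 65), and 169 at an adjusted p under 0.1; DESeq2 called 248 (122 and 126). Pathway genes called went from 0 to 3 with RLE factors, 5 with library totals, 10 without the filter, 4 with the mean count of at least 50 and 7 with DESeq2. Genes at least 2-fold to the same side in both resistant clones numbered 789, 461 with a prior of 2 CPM, and 1452 to 2003 when 1 resistant clone was left out. Members past this rule numbered 2, also without clone 2, and 6 without clone 1. The causes were not tested. With 1 resistant clone left out, the log2 fold change ranged from -0.13 to 1.03 for TGFB1, from -0.34 to 1.51 for INHBA and from -0.79 to 0.22 for BMP2, the negative values without clone 2 for TGFB1 and INHBA and the positive one without clone 1 for BMP2. Relative to its window BMP2 was at 0.082. The other members kept their sign under each alternative run. No paired analysis was run, since the labels name no pairs of parental and resistant clones.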

Other observations

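Some further pathway genes were named only after their values were seen. The BMP co-receptor RGMA was at 17.5 CPM in the parental clone and at 4.28 and 1.78 CPM in the resistant clones. Its log2 fold change was -2.53 ± 0.56 (SE, edgeR adjusted p = 0.126). BAMBI, a decoy receptor and BMP target, had 62 reads against 17 and 15 (log2 fold change -2.20 ± 0.60 SE, edgeR adjusted p = 0.237). SOSTDC1, a secreted BMP antagonist under the count minimum, had 26 reads in the parental library and none in either resistant library. The TGF-β targets PDGFB, SPHK1 and IL11 were read higher in both resistant clones. PDGFB, a growth factor subunit, was at 9.50, 28.9 and 32.7 CPM, the sphingosine kinase gene SPHK1 at 14.8, 44.3 and 54.1 CPM, and the cytokine IL11 at 9.15, 15.5 and 45.5 CPM. Their edgeR adjusted p were 0.150, 0.130 and 0.427.

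Some latency proteins and inhibitors, chosen after their values were seen, were read higher in resistant clone 2 than in resistant clone 1. Among the tested genes of that list, THBS1, NBL1, FSTL1 and BAMBI were read lower in resistant clone 2. Of all genes, 5.23% were at least 2-fold higher in resistant clone 2 than in resistant clone 1. Among the tested genes of the list, LTBP2, LTBP4, FST, FSTL3 and NOG met that rule, and LTBP1 did not. LTBP4, a latency protein, was at 52.9 CPM in the parental clone, 52.3 CPM in resistant clone 1 and 214 CPM in resistant clone 2. Follistatin (FST), which binds activin, was at 117, 100.4 and 268 CPM, and the BMP antagonist NOG at 11.8, 14.8 and 32.8 CPM. In the activin-binding protein gene FSTL3, at 99.4, 25.8 and 121 CPM, and in the latency protein gene LTBP1, at 119, 78.3 and 112 CPM, resistant clone 1 had the lowest level. These differences are between 2 libraries of the same group and were not tested.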
